A study of Mus musculus with 1615 samples.

Results

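Fibroblasts of the mouse colon were 12.6% of 1615 sorted single cells, which left 1411 other cells. A cell was taken as a fibroblast if it had a summed level of at least 200 CPM (gene counts scaled to the same total in every cell) of Pdgfra and Dpt together, at least 50 CPM of Dcn, under 200 CPM of Notch3, under 100 CPM each of Cdh5 and Epcam, and under 1000 CPM of Myh11. The fibroblasts were thus chosen by the measured levels of these 7 genes, whose values are given as a description. The series, an inventory of smooth muscle cells, holds full-length Smart-Seq2 libraries of single cells from 11 mice of 5 reporter lines.

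All mice were 8 to 30 weeks old by their labels, and a line's fluorescent protein is, by its name, driven by the promoter of that gene. The line ACTA2GFP:CSPG4dsRED, which carries both reporters, gave 57.8% of the fibroblasts from the female 20GG79:1, 63 cells from the male 20GG79:6 and 2 cells from the female 20GG95:3. Males of the line PDGFRbGFP gave 8 (19CB4:5) and 4 (18CB155:7), and males of the line ACTA2GFP gave 5 (19CB38:5) and 4 (19CB34:7). The other 4 mice, of the lines PDGFRbGFP, PDGFRaH2bGFP and CSPG4dsRED, gave 0. How the sort was gated is not given in the labels, so the number of fibroblasts per mouse is no measure of their share in the tissue. The series text speaks of males, while the labels also give females, and the protocol text names the heart while the tissue field says colon. Mouse is the replicate throughout, and cells of a mouse share its plate and sort.

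Fibroblasts build and remodel the collagen-rich matrix of the gut wall. Those directly beneath the epithelium, rich in PDGFRA, secrete BMP ligands and WNT5A toward the upper crypt and surface. Fibroblasts around the crypt base and in the submucosa, often CD34-positive, secrete BMP antagonists such as gremlin 1 that keep BMP signalling low near the stem cells.

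The label was checked against the 7 fibroblast markers that the gate did not use, whose summed level ran from 2109 to 64752 CPM per cell with a median of 25591 CPM. Of these, Fndc1 and Igfbp3 had medians of 561 and 869 CPM against 2.38 and 13.3 CPM in the other 1411 cells. Lum, the proteoglycan lumican, had a median of 1017 CPM against 13.1 CPM. These medians pool the other cells of all mice, and no sum of the 7 is given for those cells. Within the 3 mice compared below, 0 of the 7 were at least 4 times higher in every mouse and 0 were lower. Over all measured genes these shares were 0.789% and 1.32%. The median log2 ratio of the 7 was 2.06 beside -0.20 over all measured genes. In 19CB4:5 mean Igfbp3 was 909 CPM in fibroblasts and 1883 CPM in other cells. The levels of the 3 markers that the gate required are given as a description only. Pdgfra, the PDGF receptor of mesenchymal cells, had a median of 630 CPM against 0 in the other cells. Dcn, the collagen-binding proteoglycan decorin, had a median of 2877 CPM against 73.8 CPM. Dpt, the matrix protein dermatopontin, had a median of 1123 CPM against 7.61 CPM. The 2 fibroblasts of 20GG95:3 went against the label: Pdgfra was listed at 0 in both, and their mean level of Acta2, smooth muscle actin, was 7700 CPM. They enter no test and no ratio within a mouse, but they are among the values over all fibroblasts. Without them the median of Pdgfra was 634 CPM and that of Dcn was 2911 CPM.

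The cell nearest the gate on Pdgfra and Dpt had 213.2 CPM inside and 193.6 CPM outside. For Myh11, smooth muscle myosin, the nearest cells had 941 CPM inside and 1057 CPM outside, and 97 cells failed that criterion alone. Gene counts per fibroblast ran from 52042 to 918197, with a median of 276342. Markers of other cell types were present: 77 fibroblasts, 37.7%, held at least 2 markers of another class at 100 CPM or more. Pericyte markers did so in 41 cells and visceral muscle markers in 25. Of the 8 fibroblasts of 19CB4:5, 6 held markers of another class, among them blood endothelial markers in 5 and lymphatic ones in 3. Epithelial markers were held by 2 of the 5 fibroblasts of 19CB38:5. They were also held by 2 of the 4 of 18CB155:7, where their sum reached 18493 CPM in a cell. The part of such cells in the results below was not tested, but values without them stand with the dependence on processing.

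Fibroblasts were set against all other cells of the same mouse in the 3 mice with at least 5 cells on each side, 20GG79:1, 20GG79:6 and 19CB4:5. Secreted signals, protease inhibitors and matrix genes were among those higher in each mouse. Measured genes were the 5450 with a mean over the 3 mice of at least 50 CPM on 1 side. Of these, 43 were at least 4 times higher in every mouse, which is 0.789%, and 72 were at least 4 times lower, which is 1.32%. The gate chose the cells, and each gene here comes from the cells it chose, so these values carry no test.

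With ribosomal, mitochondrial, predicted and unnamed genes left out, the leading gene was Clec3b, which encodes tetranectin, a plasminogen-binding protein. Its mean was 166.7 CPM in fibroblasts and 4.9 CPM in other cells of 20GG79:1, 65.4 and 4.07 CPM in 20GG79:6, and 213.2 and 21.7 CPM in 19CB4:5. The 4-fold measure required the same order of the 2 sides in all 3 mice, so that order is no separate result. Htra3, a secreted serine protease, had 1443 against 84.4 CPM, 1130 against 114.1 CPM and 1492 against 164.2 CPM in the same mice. Serpina3n, a secreted protease inhibitor, had 518 against 17.6 CPM, 359.2 against 29.8 CPM and 460.5 against 64.3 CPM.

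**Figure D1:**
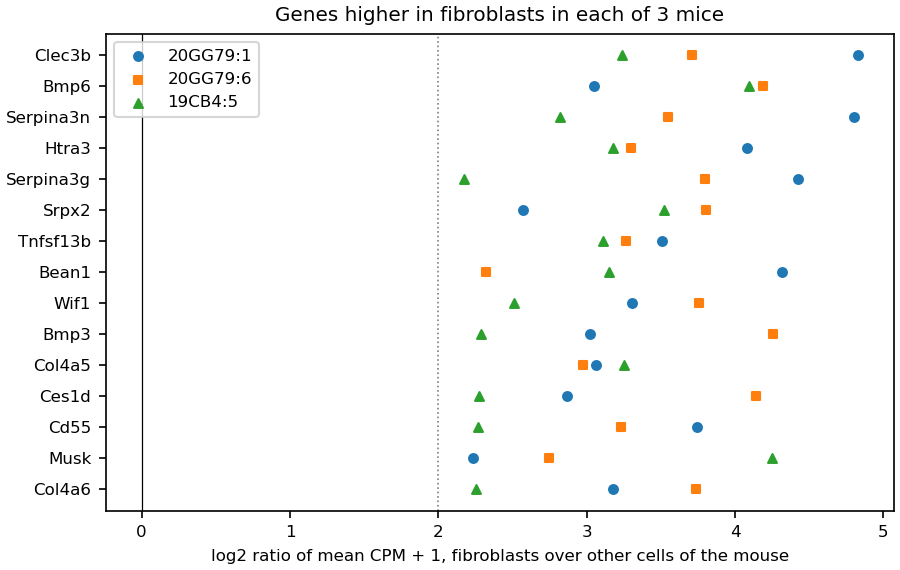
Log2 ratio of mean CPM + 1, fibroblasts over all other cells of the mouse, for the 15 genes with the highest mean ratio among those at least 4 times higher in each of 3 mice. Ribosomal, mitochondrial, predicted and unnamed genes were left out. Each point is 1 mouse, and the dotted line marks a 4-fold difference. Levels in 19CB4:5 were low for some genes, such as Wif1 with 6.73 against 0.356 CPM. Clec3b leads, with ratios of 4.83 in 20GG79:1, 3.71 in 20GG79:6 and 3.24 in 19CB4:5.

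Signals of the BMP and immune families followed. Bmp6, a BMP ligand, had 70.6 against 7.64 CPM, 103.1 against 4.72 CPM and 63.5 against 2.79 CPM. Tnfsf13b, the B cell survival factor BAFF, had 116.99 against 9.35 CPM, 84.8 against 7.92 CPM and 77.4 against 8.1 CPM. Of 15 BMP and TGF-beta ligands, 10 reached 50 CPM and 2 of these, Bmp3 and Bmp6, were higher by the 4-fold measure, beside 0.789% over all measured genes. Bmp3 had 81.2 against 9.13 CPM in 20GG79:1, 328.7 against 16.2 CPM in 20GG79:6 and only 7.52 against 0.746 CPM in 19CB4:5. It thus reached 50 CPM through the 20GG79 mice. The list median was 1.93 on the log2 scale beside -0.20 over all measured genes.

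Among 49 fibrillar and elastic matrix genes, 43 were measured, 3 were higher and 0 were lower. The 3 were Fbln1 (fibulin 1), Mfap4 (a microfibril-associated protein) and Tnc (tenascin C), and the list median was 1.63. Col1a1, the main chain of type I collagen, had log2 ratios of 1.46, 1.74 and 2.92, so other sorted cells also held its RNA. Of 17 measured prostaglandin and retinoid genes, 3 were higher and 0 were lower, beside 0.789% and 1.32% over all measured genes, with a list median of 1.22. The 3 were Ptges (prostaglandin E synthase), Hpgd (which degrades prostaglandins) and Aldh1a1 (which makes retinoic acid). Genes lower in fibroblasts included Gja4, a connexin of vessel walls, with 3.55 against 270.5 CPM, 7.45 against 266.99 CPM and 26.5 against 407.02 CPM. Mcam, an adhesion molecule of endothelial and mural cells, had 10.9 against 434.6 CPM, 41 against 727 CPM and 51.9 against 546 CPM.

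The 3 subepithelial genes divided the fibroblasts. Bmp7 and Bmp5 encode BMP ligands and F3 encodes tissue factor, which starts blood clotting. Bmp7 (ENSMUSG00000008999, chromosome 2, 172868012 to 172940321 in GRCm38) ran from 0 to 3996 CPM with a median of 112.4 CPM, which was 131.6 CPM without the 2 cells of 20GG95:3. Across cells, Spearman's rho of Bmp7 with Bmp5 was 0.55 over the fibroblasts of 20GG79:1 and 0.67 over the 63 of 20GG79:6. Cells of a mouse share a plate and sort, so these are descriptions.

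The sum of the 3 genes ran from 0 to 6751 CPM per cell, with a median of 784 CPM. Its distribution had a broad stretch of cells that thinned out above 1023 CPM and a second one between 2895 and 5792 CPM. A cut of 2000 CPM gave 67 cells above it, here called subepithelial-gene-high, which was 32.8% of the fibroblasts. The cut was chosen after the distribution and the counts of differing genes at cuts of 500, 1000 and 2000 CPM had been seen, and 21 cells lay between 1400 and 2800 CPM. The high cells were 32 in 20GG79:1, beside 86 others, 34 of 63 in 20GG79:6 and 1 of 4 in 19CB34:7. The other 4 mice with fibroblasts had 0 high cells among 2 to 8 fibroblasts each.

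**Figure D2:**
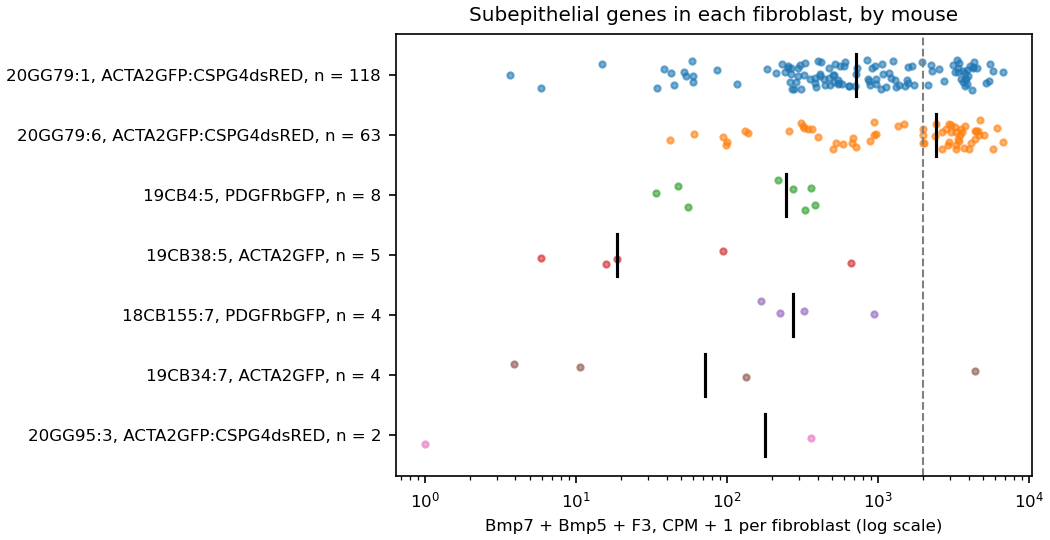
Summed level of Bmp7, Bmp5 and F3 in each fibroblast, in CPM + 1 on a log axis, by mouse. Points are cells, black bars are medians, and the dashed line marks 2000 CPM. The median is 714 CPM in 20GG79:1 and 2446 CPM in 20GG79:6, and the highest cell of 19CB4:5 is at 384.96 CPM.

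Subepithelial-gene-high cells of both 20GG79 mice held more RNA of Bmp3, Inhba, Wif1 and Col4a5 and far less of Grem1, C3, Col14a1 and Cd34 than the other fibroblasts. Of 5035 genes measured, 60 were at least 4 times higher in both mice, which is 1.19%, and 2.28% were at least 4 times lower. Both directions together came to 3.48% of genes, beside 1.48% at a cut of 500 CPM and 2.48% at 1000 CPM. No test was run at these cuts. Median gene counts of high and other cells were 325238 and 279192 in 20GG79:1, and 197318 and 230328 in 20GG79:6. None of 18 measured dissociation-stress genes differed by 4-fold in both mice.

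Ribosomal, mitochondrial, predicted and unnamed genes were left out of the rankings by ratio. The largest mean log2 ratio among the remaining higher genes was that of Tmem132e, a membrane protein gene. Its means were 98.6 CPM in high and 0.447 CPM in other fibroblasts of 20GG79:1, and 70.8 and 0.0805 CPM in 20GG79:6. F2rl3, a thrombin receptor, had 192.5 and 3.24 CPM, then 84.5 and 5.03 CPM. Among the lower genes Serpina3n had the largest, with 11.3 and 706 CPM, then 10.9 and 768 CPM. These genes were chosen by passing 4-fold in the same direction in both mice, so the shared order of the sides is no separate result.

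Among BMP and TGF-beta ligands, Bmp3 had means of 255.6 CPM in high and 16.3 CPM in other fibroblasts of 20GG79:1, and 525 and 98.8 CPM in 20GG79:6. Inhba, the activin A subunit, had 152.4 and 14.1 CPM, then 93.3 and 1.77 CPM. Gdf10, also called BMP3B, went the other way, with 1.74 and 130.3 CPM, then 3.39 and 73.8 CPM. Tgfb3 was also lower in high cells, with log2 ratios of -2.99 and -2.64. Bmp4, another BMP ligand, was near equal, with 1774 and 1315 CPM, then 1842 and 1476 CPM.

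BMP antagonists were also split. Grem1, gremlin 1 (ENSMUSG00000074934, chromosome 2, 113746164 to 113758646), had 3.95 CPM in high and 287.99 CPM in other fibroblasts of 20GG79:1. In 20GG79:6 it had 7.19 and 239.1 CPM, which are log2 ratios of -5.87 and -4.87. Nbl1, a member of the same antagonist family, had 2366 and 490.8 CPM, then 3039 and 617 CPM. The remaining 5 of 7 measured antagonists passed in neither direction in both mice. Over all measured genes 1.19% were higher and 2.28% were lower.

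Among WNT inhibitors, Wif1 (ENSMUSG00000020218, chromosome 10, 121033960 to 121100650) was higher, with 378.3 and 12.5 CPM, then 301.98 and 1.53 CPM. Counts of Wif1 were found in 62.5% of high cells of 20GG79:1 against 33.7% of the others, and in 61.8% against 27.6% in 20GG79:6. The frizzled-related proteins Sfrp1 and Frzb were lower. Sfrp1 had 34.9 and 587 CPM, then 13.2 and 445.7 CPM. Wnt5a, a noncanonical WNT ligand, had 865 and 91.6 CPM, then 664 and 256.8 CPM, and passed the 4-fold measure in 20GG79:1 but not in 20GG79:6.

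The stretches before the start sites of Wif1, Bmp5 and Grem1 are shown for an inhibitor that was higher in high cells, for the antagonist that was lower, and for a ligand of the sum. The level of Bmp5 was set by the cut itself and is no result. They are the 250 bases before the start given by RefSeq for GRCm38.p6. The GENCODE start of Wif1, 121033960, lies inside its window, so the last part of that stretch is within the gene by GENCODE. Capitals mark TGTTTA, the core of forkhead factor sites, or its reverse complement.
Wif1, chr10:121033754-121034003, plus strand: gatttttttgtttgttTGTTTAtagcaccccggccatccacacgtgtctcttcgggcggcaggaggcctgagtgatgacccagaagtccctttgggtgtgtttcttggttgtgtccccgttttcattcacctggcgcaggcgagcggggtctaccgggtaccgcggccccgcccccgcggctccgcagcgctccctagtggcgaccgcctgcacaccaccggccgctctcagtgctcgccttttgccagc
Bmp5, chr9:75775115-75775364, plus strand: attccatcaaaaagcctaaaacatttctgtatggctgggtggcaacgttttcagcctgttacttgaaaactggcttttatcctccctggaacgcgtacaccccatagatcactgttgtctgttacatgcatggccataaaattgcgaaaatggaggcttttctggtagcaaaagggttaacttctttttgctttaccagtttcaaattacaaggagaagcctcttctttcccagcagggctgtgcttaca
Grem1, chr2:113758649-113758898, minus strand: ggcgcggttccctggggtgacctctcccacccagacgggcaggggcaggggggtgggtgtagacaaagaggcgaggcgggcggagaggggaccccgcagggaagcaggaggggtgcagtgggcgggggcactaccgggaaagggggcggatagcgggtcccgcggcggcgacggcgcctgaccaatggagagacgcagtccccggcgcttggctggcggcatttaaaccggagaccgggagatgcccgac

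TGTTTA is in 12% of all 32851 such windows, on either strand, and Wif1 holds 1 match. It was searched after TGTTTAC, which holds it and is in 3.17% of windows, had no match in the 3. GACCACCCA (0.225% of windows), ACCACCCA, which lies within it (1.28%), and GGAAGTGAC (1.13%) had no match in the 3 either. CACCTG (17.2%) had a match in Wif1. All were searched on both strands. A match is a run of letters and no evidence of binding.

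Of 45 measured fibrillar and elastic matrix genes, 8 were at least 4 times lower in both mice, 0 were 4 times higher and 37 were neither. The shares over all measured genes were 2.28% lower and 1.19% higher. Col14a1, a collagen on fibril surfaces, had 10.3 and 869 CPM, then 9.24 and 382.4 CPM. Eln, elastin, had 43.5 and 953 CPM, then 37.5 and 487.2 CPM. Ogn, the proteoglycan osteoglycin, had 2259 and 648 CPM, then 1323 and 628 CPM, above the other fibroblasts but under the 4-fold measure. Col16a1, a collagen chain, had 577 and 284.7 CPM, then 577 and 246.99 CPM. Col1a1 had log2 ratios of -0.21 and 0.12, and Col3a1 of -0.14 and -0.17. In the basement membrane list, Col4a5, a type IV collagen chain, was the higher gene of 17 measured, with 1011 and 87.8 CPM, then 550 and 84.6 CPM. Col15a1, a basement membrane zone collagen, was the lower one, with 7.82 and 536 CPM, then 25.4 and 526 CPM.

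Of 16 measured genes of adventitial fibroblasts, 8 were lower in high cells, 1 was higher and 7 were neither. Over all measured genes 2.28% were lower and 1.19% were higher. The list median was -2.89 beside 0.05 over all measured genes. Cd34, a progenitor surface protein, had 26.8 and 1443 CPM, then 109.7 and 785 CPM. Pi16, a peptidase inhibitor of adventitial fibroblasts, had 3.55 and 185.1 CPM, then 1.53 and 37.7 CPM. The higher gene was Procr, the protein C receptor, with 1152 and 51.4 CPM, then 667 and 156.6 CPM.

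Of 11 measured chemokine, cytokine and complement genes, 6 were lower in high cells and 0 were higher, beside 2.28% and 1.19% over all measured genes. C3, the central complement component, had 5.68 and 393.2 CPM, then 5.83 and 278.2 CPM. Ccl11, the eosinophil chemokine eotaxin, had log2 ratios of -5.58 and -3.49. Il33, an alarmin, had 0.44 and 55 CPM, then 1.34 and 85.1 CPM. Cxcl12, a chemokine that retains blood cells, was near equal, with log2 ratios of 0.18 in both mice.

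**Figure D3:**
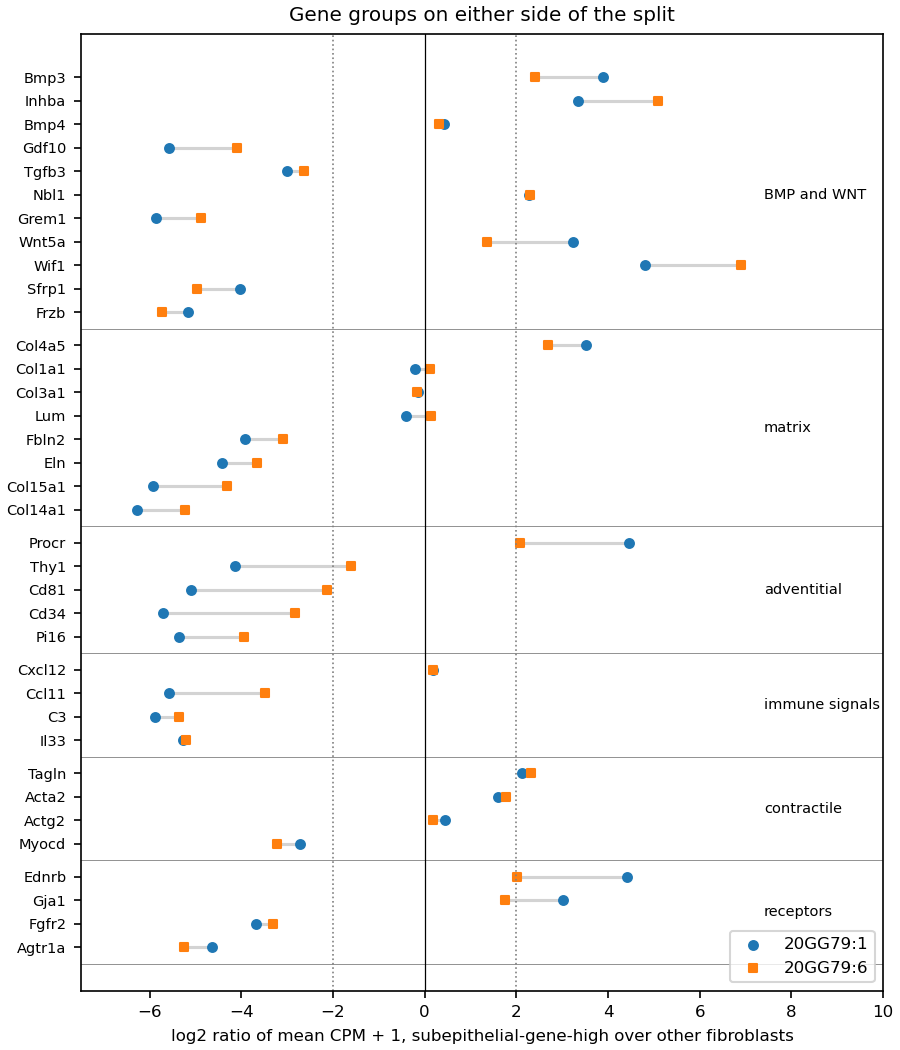
Log2 ratio of mean CPM + 1, subepithelial-gene-high over other fibroblasts at 2000 CPM, for genes of 6 groups. Circles are 20GG79:1, squares are 20GG79:6, and dotted lines mark 4-fold differences. Wif1, Bmp3 and Col4a5 lie to the right in both mice, Grem1, C3 and Col14a1 to the left, and Col1a1 and Cxcl12 near 0.

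Of 14 measured receptor and channel genes, 2 were higher, 2 were lower and 10 were neither, beside 1.19% higher and 2.28% lower over all measured genes. Ednrb, the endothelin B receptor, had 329.8 and 14.6 CPM, then 149.02 and 35.9 CPM, and Edn3, an endothelin that binds it, had 214.99 and 32 CPM, then 124.5 and 21.2 CPM. Agtr1a, the angiotensin receptor, and Fgfr2, an FGF receptor, were lower. Of 21 measured transcription factors, 1 was higher, 1 was lower and 19 were neither. The higher one, Sox6, had 239.4 and 15 CPM, then 266.3 and 15.9 CPM. The lower one was Zeb2, a transcriptional repressor, which had 51.5 and 335.9 CPM, then 86.5 and 472.1 CPM. Foxf1, a target of Hedgehog signalling, had log2 ratios of 0.86 and 0.37, and 0 of 10 measured Hedgehog response genes passed in both mice.

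Of 19 measured contractile genes, 1 was higher, 1 was lower and 17 were neither, beside 1.19% higher and 2.28% lower over all measured genes. The higher gene was Tagln, transgelin, with 378.8 and 86.8 CPM, then 539 and 107.9 CPM, and the lower was Myocd, the smooth muscle coactivator myocardin. Acta2 had 2129 and 705 CPM, then 2485 and 730 CPM, below the 4-fold measure in both mice. Of fibroblasts with at least 1000 CPM of Acta2, 25 of 38 in 20GG79:1 and 29 of 35 in 20GG79:6 were high cells. Both mice carry a reporter driven by the Acta2 promoter. Over cells of all mice, the summed level of 6 visceral muscle markers had a median of 161.1 CPM in high and 159.3 CPM in other fibroblasts. That of 6 pericyte markers had medians of 478.1 and 164.5 CPM, with Higd1b at 0 in high cells. The pericyte markers did not move alike. Of 4 measured, 1, Rgs5, was at least 4 times lower in high cells of both mice, 0 were higher and 3 were neither. Means in high cells were 214.3 CPM for Cspg4, 206.8 CPM for Kcnj8, 170.5 CPM for Abcc9, 21.3 CPM for Rgs5 and 2.04 CPM for Ndufa4l2. The summed level of 5 vascular muscle markers, all with counts on both sides, had a median of 76.6 CPM in high and 9.5 CPM in other fibroblasts, with ranges of 0 to 1211 CPM and 0 to 1639 CPM. Most of this sum in high cells was Mrvi1, with a mean of 225.7 CPM. P2rx1 had a mean of 11.3 CPM there, and Pln, Kcna5 and Kcnab1 had 0.415, 0.455 and 0.777 CPM. Without the 2 cells of 20GG95:3 the medians in other fibroblasts were 154.6 CPM for visceral muscle, 164.3 CPM for pericytes and 9.5 CPM for vascular muscle. The medians of these sums and the means of their markers pool cells of all mice, so they mix mouse and side. Over all fibroblasts of a mouse, the pericyte sum had a median of 213.1 CPM in 20GG79:1 and 445.01 CPM in 20GG79:6. High cells were 32 and 34 in these 2 mice, and other fibroblasts 86 and 29. The part of the mice and that of the pericyte and vascular muscle markers were not tested.

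**Figure D4:**
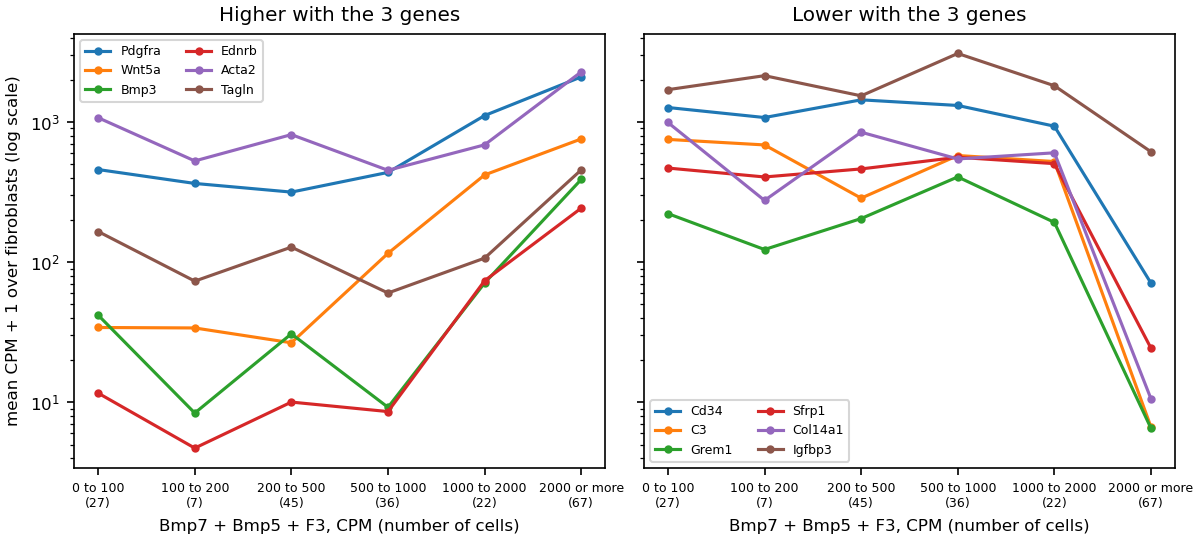
Mean CPM + 1, on a log axis, of 12 genes over fibroblasts of all mice in 6 ranges of the summed level of Bmp7, Bmp5 and F3, with the number of cells below each range. Pdgfra runs from 457.3 CPM in the lowest range to 2099 CPM in the highest, and C3 from 751 to 5.67 CPM. The ranges differ in the mice they hold, so these means mix mouse and sum.

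The levels did not move alike along the sum. Mean C3 was 522 CPM between 1000 and 2000 CPM of the sum and 5.67 CPM above 2000 CPM. Mean Pdgfra was 436.4 CPM between 500 and 1000 CPM of the sum, 1112 CPM between 1000 and 2000 CPM, and 2099 CPM above. Procr, by contrast, was at 9.89 CPM in the lowest range, 60.3 CPM between 500 and 1000 CPM, and 893 CPM above 2000 CPM. The ranges hold 7 to 67 cells of several mice, with 1 cell of 20GG95:3 below 100 CPM and 1 between 200 and 500 CPM. Without these cells the lowest range had means of 474.9 CPM for Pdgfra, 780 CPM for C3 and 10.3 CPM for Procr. Mice also differed between ranges: 20GG79:1 and 20GG79:6 gave 13 and 4 of 27 cells below 100 CPM, and 17 and 5 of 22 between 1000 and 2000 CPM. In cells under 2000 CPM mean C3 was 393.2 and 278.2 CPM in these 2 mice. It was 797 CPM in 19CB4:5, 1030 CPM in 19CB38:5, 1627 CPM in 18CB155:7 and 3410 CPM in 19CB34:7. Of the 4 fibroblasts of 18CB155:7, 2 held epithelial markers. The part of the mice and of such markers in these means was not tested. At a cut of 500 CPM the mean log2 ratios of C3, Pi16 and Gdf10 in the 20GG79 mice were 0.87, 0.95 and 0.32, above 0, so their lower level was seen at the higher cuts.

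A test between fibroblasts with more and less of the 3 genes was planned at a cut of 100 CPM, which left 1 mouse with enough cells on both sides. It was run at the substitute of 200 CPM, which left 15 cells of 20GG79:1 and 7 of 20GG79:6 below it, some of them with counts of the 3 genes. Counts were summed per mouse and side and tested with edgeR's quasi-likelihood test with the mouse as a block and 1 residual degree of freedom. Of 13965 genes, 6 were higher (0.043%) and 1 was lower (0.00716%) at an adjusted p of at most 0.05, and 916 had an unadjusted p under 0.05. The median log2 fold change of all tested genes was 0.49, so values are to be read relative to it. The count depends on the method, with 61 genes in DESeq2 and 0 in limma voom. It was also 0 at 100 CPM with at least 3 cells a side, 0 with cells split by holding at least 2 of the 3 genes, and 0 with no block.

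Procr had the smallest adjusted p at 200 CPM. Its mean was 399.8 CPM in cells at or above the cut and 7.71 CPM below it in 20GG79:1, and 483.4 and 19.9 CPM in 20GG79:6, with a log2 fold change of 4.94 ± 0.89 (SE) and an edgeR adjusted p of 0.000369. In edgeR its adjusted p was 0.9996 at 100 CPM, 0.513 with at least 2 of the 3 genes and 0.561 with no block. Emid1, a secreted protein with an EMI domain, had 459.4 and 29.6 CPM, then 721 and 29.8 CPM, with 3.84 ± 0.77 and an edgeR adjusted p of 0.00306. Aldh1a1 had 505.2 and 63.2 CPM, then 796 and 58 CPM, with 3.30 ± 0.69 and an edgeR adjusted p of 0.00713. Gja1, the connexin 43 gene, had 465.3 and 30.4 CPM, then 557 and 59 CPM, with 3.88 ± 0.75 and an edgeR adjusted p of 0.00192. Sox6 and the predicted gene Gm26903 also rose. The gene that fell was Lrrn2, a leucine-rich repeat membrane protein, with 94.4 and 331.5 CPM, then 62 and 609 CPM, and an edgeR adjusted p of 0.0467. Without cells holding markers of another class, the edgeR adjusted p was 0.00455 for Procr and for Emid1, and from 0.0605 to 0.676 for the other 5. Of the lists, 1 of 18 tested adventitial genes, 1 of 24 receptor and channel genes, 1 of 20 retinoid and prostaglandin genes and 1 of 36 transcription factors passed, all higher.

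The last comparison set fibroblasts of the dual reporter line, from 20GG79:1 and 20GG79:6, against those of 19CB4:5 and 19CB38:5. No gene of 14304 passed in edgeR (0%), the smallest adjusted p was 0.254, and 1801 genes had an unadjusted p under 0.05. DESeq2 called 2.27% of genes. Line, plate and sort cannot be told apart in this comparison, and the share of high cells also differed, so it was repeated on cells under 2000 CPM of the sum, where 0 of 10748 genes passed and the smallest adjusted p was 0.0773.

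The levels of a few members are given for these mice as values. Tnc had 1066 and 1920 CPM in 20GG79:1 and 20GG79:6, and 168.3 and 58.6 CPM in 19CB4:5 and 19CB38:5. The 2 groups did not overlap, as in 39.2% of all tested genes with both dual-line mice above and 11.2% with both below, and the edgeR adjusted p was 0.388. C3 had 288.1 and 131.2 CPM against 797 and 1030 CPM, and 1627 and 2558 CPM in 18CB155:7 and 19CB34:7. Cd81, a tetraspanin of the adventitial list, had 141.4 and 98.3 CPM against 723 and 631 CPM.

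Over all tested genes 54.9% had a positive log2 fold change. By list, 22 of 25 tested basement membrane genes did, with a median of 1.96 beside 0.26 over all tested genes, and 1 of 20 adventitial genes did, with a median of -1.83. No member passed the adjusted threshold. Of 23 dissociation-stress genes, 2 were positive, with a median of -1.19. The mean mitochondrial share of counts was 1.05% in 20GG79:1 and 0.749% in 20GG79:6, and 5.32% in 19CB4:5 and 4.47% in 19CB38:5. All 6 epithelial markers were lower in the dual line, with a median of -4.72, and their summed level reached 15963 CPM in a cell of 19CB38:5. All 6 blood endothelial markers were lower too, with a median of -2.74. The part of these markers, of the stress genes and of the mitochondrial share was not tested. In 20GG79:1 and 20GG79:6 the Acta2 means were 1091 and 1677 CPM, and in 19CB4:5 and 19CB38:5 they were 122.4 and 288.7 CPM.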

How the data were processed

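The authors deposited raw counts per Ensembl gene and spike-in, 1 column per cell. The submitters' processing notes name bcl2fastq, Bowtie, Bowtie2, featureCounts and Subread and the builds GRCm38 and mm10, without roles. The labels give neither cell filters nor the strand setting of the counting. Of 46517 gene identifiers, 46005 took a symbol and position from GENCODE for GRCm38.

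CPM is a gene's count over the cell's gene counts, without the 92 spike-ins and scaled to the usual total, and ratios are log2 of mean CPM + 1. Smart-Seq2 reads carry no molecular identifiers, and no doublet caller was run. Counts summed per mouse were tested with edgeR 4.0.16 (TMM, filterByExpr, robust quasi-likelihood) under R 4.3.3, with DESeq2 1.42.0 and limma 3.58.1 as alternatives and Benjamini-Hochberg adjustment over all genes not used in the split or gate. In counts simulated for the comparisons at 200 CPM and of the lines, edgeR recovered 82.5% and 78% of 200 genes changed by 2 on the log2 scale. The simulated counts had the same dispersion in every gene and no differences between mice. The changed genes were drawn from those above the median level. These shares therefore check the code and do not give the power of the tests on the real counts.

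The cells, lists and markers were chosen with earlier results of these data known. The planned cut of 100 CPM left 1 mouse with 5 cells a side, so a cut of 200 CPM, set as its substitute, was tested, and 2000 CPM was added after seeing the data. Genes named against other cells are among the largest ratios passing 4-fold in each mouse or members of the lists. Those named at 2000 CPM are members of the lists, beside Tmem132e, F2rl3 and Serpina3n from the largest ratios. All those named at 2000 CPM were chosen after their values were seen, as were other members of the lists. Both sides of a split come from the same mouse, which is the block.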

Additional observations from a re-analysis of the deposited data

Results flagged for a closer look

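In 3 genes the fibroblasts of the PDGFRbGFP mouse 19CB4:5 differed from its other cells in the opposite direction to those of the dual-line mice 20GG79:1 and 20GG79:6, and the difference between the mice was not tested. Igfbp3, an IGF binding protein, had log2 ratios of 3.96 and 2.0 in the dual-line mice and -1.05 in 19CB4:5, where other cells had 1883 CPM and fibroblasts 909 CPM. Acta2 had -1.98 and -1.11 in the dual-line mice and 0.79 in 19CB4:5, where fibroblasts had 122.4 CPM and other cells 70.1 CPM. Tagln had -2.83 and -1.54 in the dual-line mice and 0.39 in 19CB4:5. The other cells of 19CB4:5 came from another line and plate, and Myh11 had a mean of 9.1 CPM in them against 3675 and 2640 CPM in the dual-line mice.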

How the results depend on the processing

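Against all other cells, the 43 higher genes became 10 with the gate at 100 CPM, 76 in fibroblasts of at least 100000 counts and 84 in fibroblasts without markers of another class, the last 2 in 2 mice, and 73 to 93 when 1 mouse was left out. The 3.48% of genes past 4-fold at 2000 CPM became 1.48% at 500 CPM, and 8.23% to 12.7% in single mice. At 500 CPM 5 genes lower in high cells had a mean log2 ratio above 0: Adamtsl2 (0.021), C3 (0.87), Gdf10 (0.32), Pcolce2 (1.25) and Pi16 (0.95). The 7 genes called at 200 CPM became 1 with RLE factors, 15 with no filter on low counts, 61 in DESeq2 (3 of the 7 among them), 0 in limma voom, 4 without cells holding markers of another class, 0 with at least 2 of the 3 genes at 20 CPM, 17 with cells weighted equally, 0 at 100 CPM with 3 cells a side and 0 with no replicate block. Leaving out a mouse leaves this test no residual degrees of freedom, and cuts of 50 and 100 CPM left 1 mouse with 5 cells a side; neither was run. The 0% of genes between lines became 0.900% with no filter, 2.27% in DESeq2, 12.5% in cells of at least 100000 counts, where 1 mouse stood on the other side, and 0.063% to 16.8% when 1 mouse was left out: 0.0646% without 20GG79:1, 0.063% without 20GG79:6, 7.62% without 19CB38:5 and 16.8% without 19CB4:5. It could not be fitted without cells holding other markers. The cause of these changes was not tested. The cut at 2000 CPM, the lines restricted to cells below it, the 4-cell minimum and 3-cell minimum were added after seeing the data. Few mice and few fibroblasts outside the 20GG79 mice limit every comparison.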
